A study of Mus musculus with 9 samples.

Results

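T-box transcription factors are the proteins that share the T-box, a DNA-binding domain first described in Brachyury. The 9 T-box genes described (Tbx1, Tbx2, Tbx3, Tbx4, Tbx5, Tbx15, Tbx18, Tbx20 and Tbx22) were taken by symbol from the 54532 genes of the deposited table, where each symbol was found once. The libraries came from the lambdoidal junction, the place in the embryonic face where the maxillary prominence joins the lateral and medial nasal prominences to form the upper lip and primary palate. All embryos were C57BL/6J mice with no genetic change or treatment, and the groups were 3 embryonic stages named E10.5, E11.5 and E12.5 by the day of gestation. Each stage had 3 RNA-seq libraries, each made from the pooled tissue of many embryos, so a library is a mean over embryos and over every cell type in the dissected piece. In such bulk samples, fewer cells that express a gene and less RNA per cell cannot be told apart.

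T-box proteins bind short DNA sites around the core GGTGTGA and act as activators or repressors of lineage genes, often at small differences in dose. Several of the genes sit in clusters of old duplicates: Tbx2 (chromosome 11, 85832551 to 85841948, plus strand, GRCm38) lies beside Tbx4 (chromosome 11, 85886422 to 85916097, plus strand), and Tbx3 (chromosome 5, 119670669 to 119684724, plus strand) beside Tbx5 (chromosome 5, 119832668 to 119885219, plus strand). In the face, Tbx22 is known as the gene of X-linked cleft palate, Tbx1 as a gene of the pharyngeal arches and of 22q11 deletion syndrome, and Tbx2 and Tbx3 as repressors active in many mesenchymes.

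Promoter windows are shown for Tbx18 and Tbx4, which were upregulated, and for Tbx22, which had its highest level at E11.5. Each is the RefSeq sequence (GRCm38.p6) from 250 bases before to 50 bases after an annotated gene start, 300 bases in all, written 5′ to 3′ on the strand of the gene. The capitals mark matches on either strand to 1 of 3 common promoter motifs. These were the CCAAT box, searched by the letters of its name, the TATA box with the letters TATAAA, and the GC box with the letters GGGCGG. The windows are chr9:87731211-87731510 on the minus strand for Tbx18, chr11:85896515-85896814 on the plus strand for Tbx4 and chrX:107667714-107668013 on the plus strand for the first of 3 annotated starts of Tbx22.
Tbx18: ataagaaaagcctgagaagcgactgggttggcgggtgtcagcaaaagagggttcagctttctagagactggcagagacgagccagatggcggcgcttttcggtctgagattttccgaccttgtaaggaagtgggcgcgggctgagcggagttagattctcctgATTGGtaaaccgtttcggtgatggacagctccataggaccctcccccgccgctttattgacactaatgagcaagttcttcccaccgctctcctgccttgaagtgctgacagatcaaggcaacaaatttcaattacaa
Tbx4: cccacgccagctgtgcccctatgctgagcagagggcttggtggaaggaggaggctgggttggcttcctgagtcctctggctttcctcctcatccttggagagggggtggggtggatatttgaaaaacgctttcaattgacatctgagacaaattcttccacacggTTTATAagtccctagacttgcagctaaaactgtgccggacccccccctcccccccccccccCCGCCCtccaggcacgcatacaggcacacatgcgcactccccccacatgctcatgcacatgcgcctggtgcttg
Tbx22: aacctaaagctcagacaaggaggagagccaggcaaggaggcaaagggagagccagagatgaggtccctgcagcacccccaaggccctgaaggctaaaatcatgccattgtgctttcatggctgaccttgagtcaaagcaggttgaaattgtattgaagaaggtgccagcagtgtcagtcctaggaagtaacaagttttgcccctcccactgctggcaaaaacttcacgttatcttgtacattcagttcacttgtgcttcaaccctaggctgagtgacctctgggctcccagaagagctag

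The Tbx18 window held 1 CCAAT box in reverse, at -87 from the gene start. The Tbx4 window held a TATA box in reverse at -85 and a GC box in reverse at -24, and its RefSeq start lies inside the gene as the deposited table gives it, not at its first base. The Tbx22 window shown held none of these letters, while that of its second annotated start, not shown, held a CCAAT box at -71. Over the 32851 windows of all genes, a CCAAT box occurred in 37.4%, a GC box in 35.7% and a TATA box in 13.6%. The T-box core GGTGTGA, searched on both strands, occurred in 3.98% of all windows and in no window of the 5 T-box genes that had one (Tbx1, Tbx4, Tbx18, Tbx20 and Tbx22). A match to these letters is a description of the sequence and not evidence of a binding site. The GC content was 51.67% in the Tbx18 window, 59% in the Tbx4 window and 50.67% in the Tbx22 window, against a median of 52.67% over all windows.

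Depth ranged from 16581009 to 20836804 counts per library. The libraries carried the markers of facial mesenchyme, whose 8 listed genes (among them Prrx1, Alx1 and Pax9) summed to 1071 to 1732 CPM at E10.5 (counts scaled to a common library total with TMM factors), 2555 to 2736 CPM at E11.5 and 2562 to 2863 CPM at E12.5. None of the 8 stayed at or below 3 counts through a stage, and 7 of the 8 did not overlap between the libraries of E10.5 and those of E11.5, against 36.6% of all genes tested. One library stood apart. In E10.5 replicate 3, the difference from the mean of replicates 1 and 2 fell with the GC content of the transcript (Spearman's rho = -0.55, across 16363 genes, a description since genes are not independent), and its sums were 1071 CPM for facial mesenchyme (1732 in both other E10.5 libraries), 76.1 CPM for 4 endothelial markers (228 and 230), 691 CPM for 6 epithelial markers (377 and 432) and 234 CPM for 7 forebrain and eye markers (171 and 147). The forebrain and eye list was also higher at E10.5 than later, at 50.4 to 54.9 CPM at E11.5 and 76.2 to 100.2 CPM at E12.5, with 6 of its 7 genes downregulated in E11.5 vs. E10.5. The part of these differences in the T-box results was not tested. Values of the T-box genes that rest on E10.5 are therefore given by library or also without replicate 3.

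The T-box genes were among the genes that differed in E10.5 replicate 3. Summed over the 9 genes, they reached 570 and 609 CPM in replicates 1 and 2 and 191 CPM in replicate 3. Relative to the mean of the other E10.5 libraries, replicate 3 held 0.266 times the level of Tbx1, 0.288 times that of Tbx2, 0.310 times that of Tbx22 and 0.389 times that of Tbx3. Tbx15 (0.548 times), Tbx18 (0.619 times) and Tbx4 (0.676 times) were lower by less, and Tbx5 (1.33 times, at 5 counts or fewer) and Tbx20 (2.21 times) were higher. The trend with GC content did not track every one of them. At 35.3% GC, the transcript of Tbx22 lay where the trend was at 0.81 on the log2 scale, and Tbx22 itself was at -1.60. Tbx1 and Tbx2, at 62.8% and 63.2% GC, were at -1.86 and -1.80, where the trend was at -0.69 and -0.71.

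**Figure D1:**
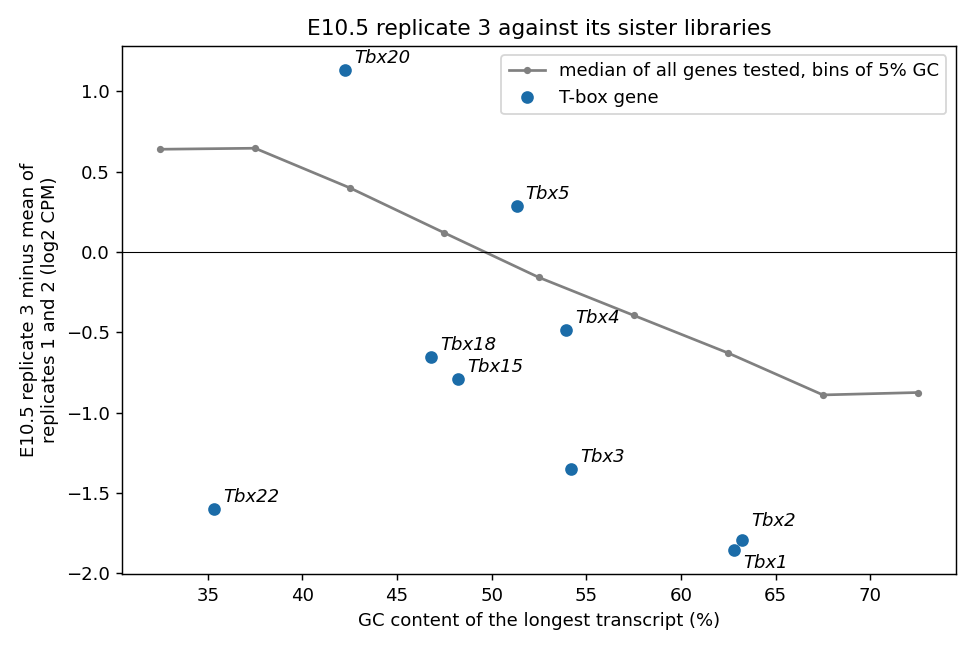
Difference of E10.5 replicate 3 from the mean of E10.5 replicates 1 and 2 (log2 CPM, y axis) against the GC content of the longest transcript (percent, x axis), for each T-box gene (blue points) and as the median of all genes in bins of 5% GC (grey line). Tbx22 is at -1.60, at a GC content where the median of all genes is above 0, and Tbx20 and Tbx5 are the only T-box genes above 0.

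Of the 9 genes, 8 had enough counts to be tested, and Tbx5 was not tested in any pair of stages. A DEG had to reach an adjusted p of 0.05 or less (Benjamini-Hochberg, over all genes tested) together with a log2 fold change of 1 or more in either direction, here in edgeR's quasi-likelihood test. In E11.5 vs. E10.5, 1 of the 8 T-box genes was a DEG (Tbx15, upregulated), against 6.07% of the 15708 genes tested (3.46% up and 2.61% down). In E12.5 vs. E10.5, 3 of 8 were upregulated (Tbx4, Tbx15 and Tbx18), against 15% of 15899 genes called in either direction (9.97% up and 5.08% down). In E12.5 vs. E11.5, 2 of 8 were upregulated (Tbx15 and Tbx18), against 5.1% of 15808 genes called (4.14% up and 0.962% down). None of the 8 was downregulated in any of the 3 comparisons in these fits, nor with DESeq2. Under other settings of edgeR, Tbx20 was called lower in E12.5 vs. E10.5 (7 alternatives) and in E11.5 vs. E10.5 (1 alternative), and Tbx22 in E12.5 vs. E11.5 (1 alternative). At an unadjusted p of 0.05, edgeR gave lower values at the later stage for Tbx20 in both comparisons with E10.5 and for Tbx22 and Tbx2 in E12.5 vs. E11.5. With no fold threshold, 1, 3 and 3 genes passed the adjusted p, Tbx22 in E12.5 vs. E11.5 being the addition, against 11.8%, 24.6% and 12.2% of all genes. The libraries of the stages did not overlap for 3, 4 and 4 of the 8 genes in these comparisons, in the same order, against 36.6%, 42.4% and 35.4% of all genes tested. The median log2 fold change over the 8 genes was 0.30, 0.38 and 0.082, against -0.032, -0.0063 and 0.019 over all genes. Without E10.5 replicate 3 the called genes numbered 1 and 3 as before in the comparisons with E10.5, while the median turned to -0.097 over the same 8 genes in E11.5 vs. E10.5 and to -0.0021 over 9 genes, Tbx5 included, in E12.5 vs. E10.5 (all genes, -0.0069 and 0.022). Each pair of comparisons shares the libraries of 1 stage, so the 3 counts are not independent.

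**Figure D2:**
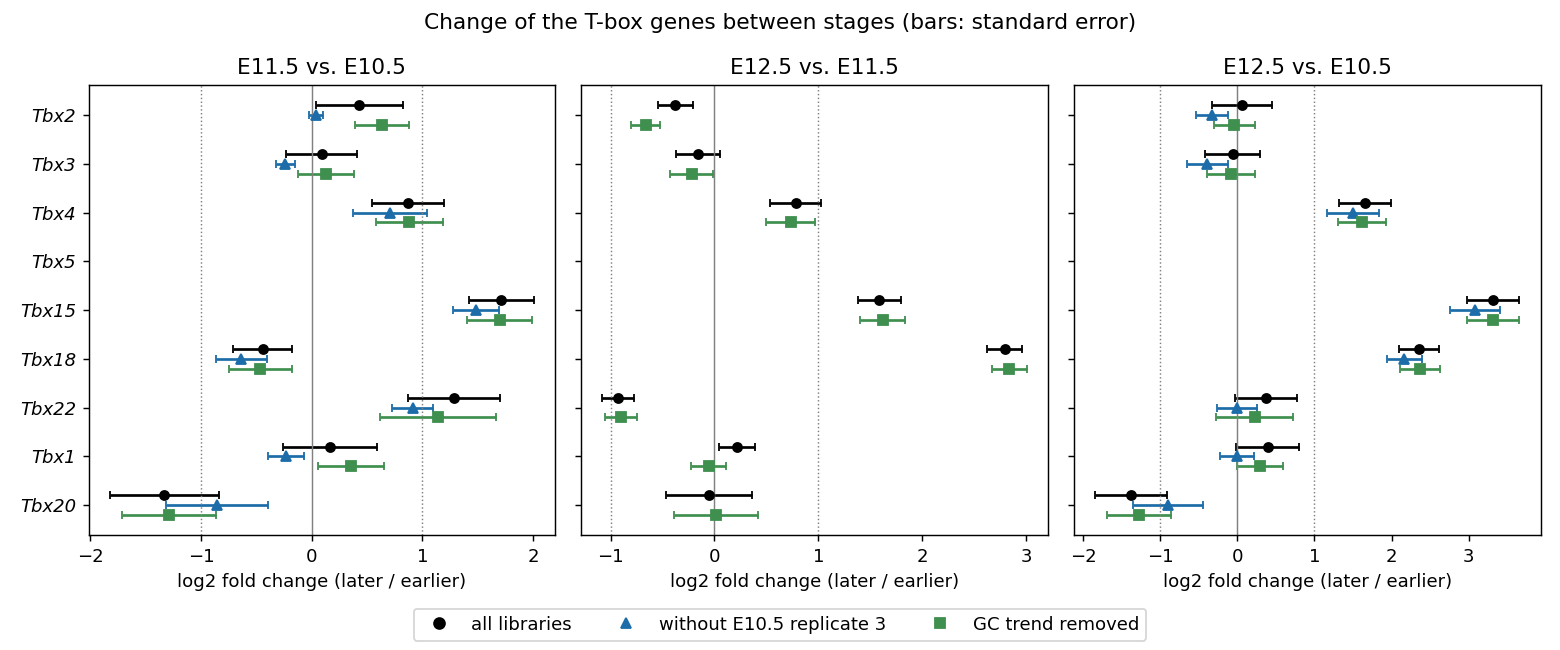
Log2 fold change, later over earlier (x axis), for each T-box gene in the 3 comparisons, with standard errors as bars, from all libraries (black), without E10.5 replicate 3 (blue, comparisons with E10.5 only) and with the GC trend of each library removed (green); dotted lines mark a log2 fold change of 1 in either direction, and Tbx5 was not tested. Tbx15 and Tbx18 lie beyond 1 in both comparisons with E12.5, and leaving out replicate 3 moves Tbx20 up and the other 7 genes down.

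Tbx15, Tbx18 and Tbx22 form a subfamily known from the skeleton and mesenchyme of head and limbs, and the largest changes fell in this group. Tbx15 (chromosome 3, 99240381 to 99354259, plus strand), which shapes skeletal elements and the dermis, stood at 6.27, 3.63 and 2.71 CPM in E10.5 replicates 1, 2 and 3. It stood at 14.7, 15.1 and 12.3 CPM at E11.5 and at 55.7, 38.4 and 31.5 CPM at E12.5. The 3 stages did not overlap at any step. Tbx15 was upregulated by a log2 fold change of 1.72 in E11.5 vs. E10.5 (SE = 0.29, adjusted p = 0.0101), by 1.58 in E12.5 vs. E11.5 (SE = 0.21, adjusted p = 8.58e-04) and by 3.31 in E12.5 vs. E10.5 (SE = 0.34, adjusted p = 5.8e-05), the last a 9.94-fold difference. Without E10.5 replicate 3 the values were 1.48 (adjusted p = 1.38e-04) for E11.5 vs. E10.5 and 3.08 (adjusted p = 9.55e-05) for E12.5 vs. E10.5. The first call was lost without E11.5 replicate 1, where the log2 fold change was 1.68 with an adjusted p of 0.0643. No T-box gene was then called in that comparison, and the share of all genes called was 2.44%, against 6.07% with all 6 libraries. Over all alternatives the adjusted p of Tbx15 there ran from 6.41e-07 to 0.0643. The facial mesenchyme markers rose with Tbx15 from E10.5 to E11.5, with 3 of 8 upregulated and a median log2 fold change of 0.88 (2 of 8 and 0.65 without replicate 3). From E11.5 to E12.5, none of the 8 was called and their median was -0.0099. The part of this shift in the Tbx15 and Tbx22 values was not tested.

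Tbx18 (chromosome 9, 87702800 to 87731260, minus strand), known from somites, ureter and the outer layer of the heart, was low at both earlier stages. Its level was 5.39, 3.97 and 2.90 CPM in the E10.5 libraries and 2.699, 3.20 and 3.24 CPM at E11.5, which overlap. At E12.5 it was 22.6, 19.1 and 21.5 CPM, above every earlier library. The log2 fold change was 2.79 in E12.5 vs. E11.5 (SE = 0.17, adjusted p = 1.3e-05, a 6.92-fold difference) and 2.36 in E12.5 vs. E10.5 (SE = 0.26, adjusted p = 1.02e-04), both upregulated, and the latter was 2.17 without E10.5 replicate 3 (adjusted p = 8.87e-05). In E11.5 vs. E10.5 it was -0.44 (SE = 0.27, adjusted p = 0.327), and -0.64 without E10.5 replicate 3 (adjusted p = 0.0432), below the fold threshold in both. Exons of Tbx18 share 970 bases (20.56%) with the opposite-strand transcript D030062O11Rik, which had 0 to 4 counts per library. The library kit does not mark strand, so reads from the shared bases cannot be told apart. The sources used here do not state a strand setting for the counting.

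Tbx22 (chromosome X, 107667964 to 107688978, plus strand), the palate gene, had its highest levels at E11.5. It stood at 17.7, 9.73 and 4.25 CPM at E10.5, at 24.0, 26.8 and 27.7 CPM at E11.5 and at 13.4, 15.96 and 11.7 CPM at E12.5. Every E11.5 library was above every library of the other stages, while E10.5 and E12.5 overlapped. In E12.5 vs. E11.5 the log2 fold change was -0.93 (SE = 0.15, adjusted p = 0.00333), past the p threshold and just short of the fold threshold. In E11.5 vs. E10.5 it was 1.29 (SE = 0.41, adjusted p = 0.085), past the fold threshold and short of the p threshold, and without replicate 3 it was 0.91 (adjusted p = 0.0020). Tbx22 was a DEG in E11.5 vs. E10.5 with DESeq2 (1.30, adjusted p = 0.00812), and over all alternatives its adjusted p there ran from 0.0020 to 0.227. The difference between E12.5 and E10.5 was 0.37 (SE = 0.40, adjusted p = 0.540), and -0.0021 without replicate 3.

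Within each library, the ratios of these 3 genes per kilobase of transcript do not depend on the scaling of the library, which cancels in them. The Tbx22 to Tbx18 ratio was 2.79, 2.08 and 1.25 at E10.5, 7.57, 7.11 and 7.27 at E11.5 and 0.505, 0.710 and 0.464 at E12.5. The ratio was above 1 in all 6 libraries of E10.5 and E11.5 and in none of the 3 of E12.5. If reads in the 970 shared bases of Tbx18 were not counted, its countable length is shorter, and with that length the ratio was 0.991 in E10.5 replicate 3, 1.65 to 6.01 in the other 5 early libraries and 0.369 to 0.564 at E12.5. The Tbx22 to Tbx15 ratio was 1.06 to 1.91 and 1.10 to 1.53 at the earlier stages, which overlap, and 0.163 to 0.281 at E12.5. The Tbx18 to Tbx15 ratio was below 1 in all 9 libraries and had its lowest values at E11.5 (0.145 to 0.210). With the shorter length of Tbx18 it was 0.86 to 1.09 at E10.5, where 2 of 3 libraries passed 1, and 0.183 to 0.264 at E11.5. These pairs were chosen after the values had been seen and are given without a test.

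**Figure D3:**
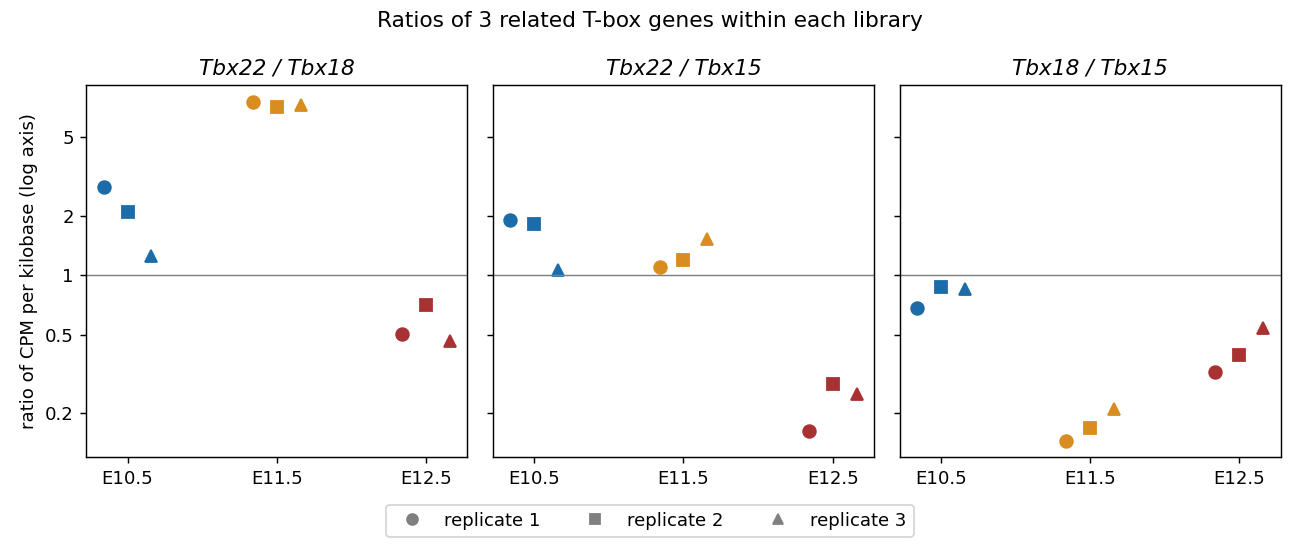
Ratio of CPM per kilobase between Tbx22, Tbx18 and Tbx15 within each library (y axis, log scale) by stage (x axis), 1 point per library with its shape marking the replicate and the grey line at a ratio of 1. The Tbx22 to Tbx18 ratio lies between 7.11 and 7.57 at E11.5 and between 0.464 and 0.710 at E12.5.

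Tbx2 and Tbx3, close relatives that mostly repress their targets, were the most abundant of the 9 T-box genes throughout. Neither was a DEG in any comparison. Tbx2 stood at 396, 415 and 117 CPM in the E10.5 libraries, 411, 421 and 437 CPM in those of E11.5 and 413, 298 and 262 CPM in those of E12.5. The one low E10.5 value is replicate 3, and the stages overlapped in all comparisons. Its log2 fold change was 0.43 in E11.5 vs. E10.5 (SE = 0.40, adjusted p = 0.523), or 0.041 without E10.5 replicate 3. It was 0.067 in E12.5 vs. E10.5 (-0.32 without that library, adjusted p = 0.264) and -0.38 in E12.5 vs. E11.5 (SE = 0.17, adjusted p = 0.160). With the GC trend of each library removed, the value in E12.5 vs. E11.5 was -0.66 (adjusted p = 0.0156), still short of the fold threshold, and over all alternatives the adjusted p ran from 0.0128 to 0.560.

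Tbx3 stood at 132, 166 and 58.0 CPM in the E10.5 libraries, 127, 127 and 130 CPM in those of E11.5 and 149, 119 and 73.4 CPM in those of E12.5. The mean was 128 ± 1.83 CPM at E11.5 (SD, n = 3), and the SD was wider at E10.5 (55.3 CPM) and E12.5 (38.3 CPM). Its log2 fold changes were 0.089 (SE = 0.32, adjusted p = 0.887) in E11.5 vs. E10.5 and -0.16 (SE = 0.21, adjusted p = 0.642) in E12.5 vs. E11.5. Without E10.5 replicate 3 the first became -0.24 (adjusted p = 0.0392), so the sign of a difference this small depended on 1 library. The antisense gene Tbx3os1, which begins inside Tbx3 and shares 115 exon bases (1.736%) with it, was upregulated in E12.5 vs. E10.5 with a log2 fold change of 1.73 (SE = 0.31, adjusted p = 0.00256), from 49 to 115 counts at E10.5 to 244 to 401 counts at E12.5. Without replicate 3 its value was 1.46 (adjusted p = 0.00173).

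Tbx4 and Tbx5, the cluster partners of Tbx2 and Tbx3, are best known as the genes of hindlimb and of forelimb and heart, and both were far scarcer here. Tbx4 stood at 1.64, 1.09 and 0.924 CPM at E10.5, 2.27, 1.84 and 2.71 CPM at E11.5 and 4.33, 4.004 and 3.31 CPM at E12.5, without overlap between stages. These levels correspond to 15 to 78 reads per library. It was upregulated in E12.5 vs. E10.5 with a log2 fold change of 1.66 (SE = 0.34, adjusted p = 0.00512), and 1.501 without replicate 3 (adjusted p = 0.00782). The single steps did not pass, at 0.87 (SE = 0.32, adjusted p = 0.123) in E11.5 vs. E10.5, or 0.71 without replicate 3, and 0.78 (SE = 0.25, adjusted p = 0.0635) in E12.5 vs. E11.5. Per kilobase, Tbx2 exceeded Tbx4 by 226, 356 and 118 times in E10.5 replicates 1, 2 and 3 and by 69.7 to 89.4 times at E12.5.

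Tbx5 had 4, 4 and 5 counts at E10.5, 1, 0 and 3 counts at E11.5 and 12, 7 and 13 counts at E12.5, too few for the filter of the main test. Where another tool or filter let it in, Tbx5 was upregulated in E12.5 vs. E11.5 with DESeq2 (3.11, adjusted p = 0.0366), with all genes of at least 1 count (edgeR, adjusted p = 0.00984), without E11.5 replicate 3 (edgeR, adjusted p = 0.0390) and without E12.5 replicate 2 (edgeR, adjusted p = 0.0117). It was not called without E11.5 replicate 1 or replicate 2 (adjusted p = 0.0996 and 0.110), so the range over all alternatives that tested it is 0.00984 to 0.110. All E11.5 libraries were at or below 3 counts, the limit of detection used here. Against 3 counts per library at E11.5, the mean of Tbx5 was 3.92-fold higher at E12.5. At E10.5 it was 1.66-fold higher (1.49-fold without E10.5 replicate 3). These ratios carry no error of the counts at the higher stage. Tbx5 was not called in E11.5 vs. E10.5 with all genes of at least 1 count (edgeR, -1.79, SE = 1.16, adjusted p = 0.439). DESeq2 gave -1.89 there (SE = 1.37) and no adjusted p. Markers of the limb and heart settings in which Tbx4 and Tbx5 are usually studied were scarce. Of 9 limb and trunk markers, the 8 Hox genes had at most 4 counts in any library, and Pitx1, which the first arch also expresses, made up nearly the whole sum. The 8 heart muscle markers summed to 0.756 to 3.27 CPM, with Nppa at 0 in all 9 libraries.

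Tbx1 (chromosome 16, 18580979 to 18590671, minus strand), the pharyngeal arch gene, stood at 8.67, 7.999 and 2.22 CPM at E10.5, at 7.88, 6.75 and 6.95 CPM at E11.5 and at 9.56, 7.68 and 7.70 CPM at E12.5. Apart from E10.5 replicate 3, all libraries lay between 6.75 and 9.56 CPM. No comparison passed, with log2 fold changes of 0.17 (SE = 0.42, adjusted p = 0.833) in E11.5 vs. E10.5, 0.22 (SE = 0.18, adjusted p = 0.437) in E12.5 vs. E11.5 and 0.40 (SE = 0.41, adjusted p = 0.520) in E12.5 vs. E10.5. The first turned to -0.23 and the last to -0.0051 without replicate 3.

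Tbx20 (chromosome 9, 24718138 to 24774303, minus strand), a heart gene that cranial motor neurons also use, had its highest value in E10.5 replicate 3, in which 6 of the other T-box genes had their lowest. It stood at 1.76, 0.978 and 3.02 CPM at E10.5, at 1.08, 0.485 and 0.743 CPM at E11.5 and at 0.834, 0.649 and 0.722 CPM at E12.5, or 10 to 49 reads per library. Each E10.5 library was above each E12.5 library. The log2 fold change was -1.33 (SE = 0.49, adjusted p = 0.122) in E11.5 vs. E10.5 and -1.38 (SE = 0.47, adjusted p = 0.0533) in E12.5 vs. E10.5, past the fold threshold and short of the p threshold. Without replicate 3 these were -0.85 (adjusted p = 0.157) and -0.89 (adjusted p = 0.161). Over all alternatives the adjusted p of the second ran from 0.0254 to 0.161. The 6 branchiomotor neuron markers summed to 23.9 to 30.6 CPM at E10.5, 17.6 to 19.9 CPM at E11.5 and 15.8 to 16.2 CPM at E12.5. Their part in the Tbx20 values was not tested.

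**Figure D4:**
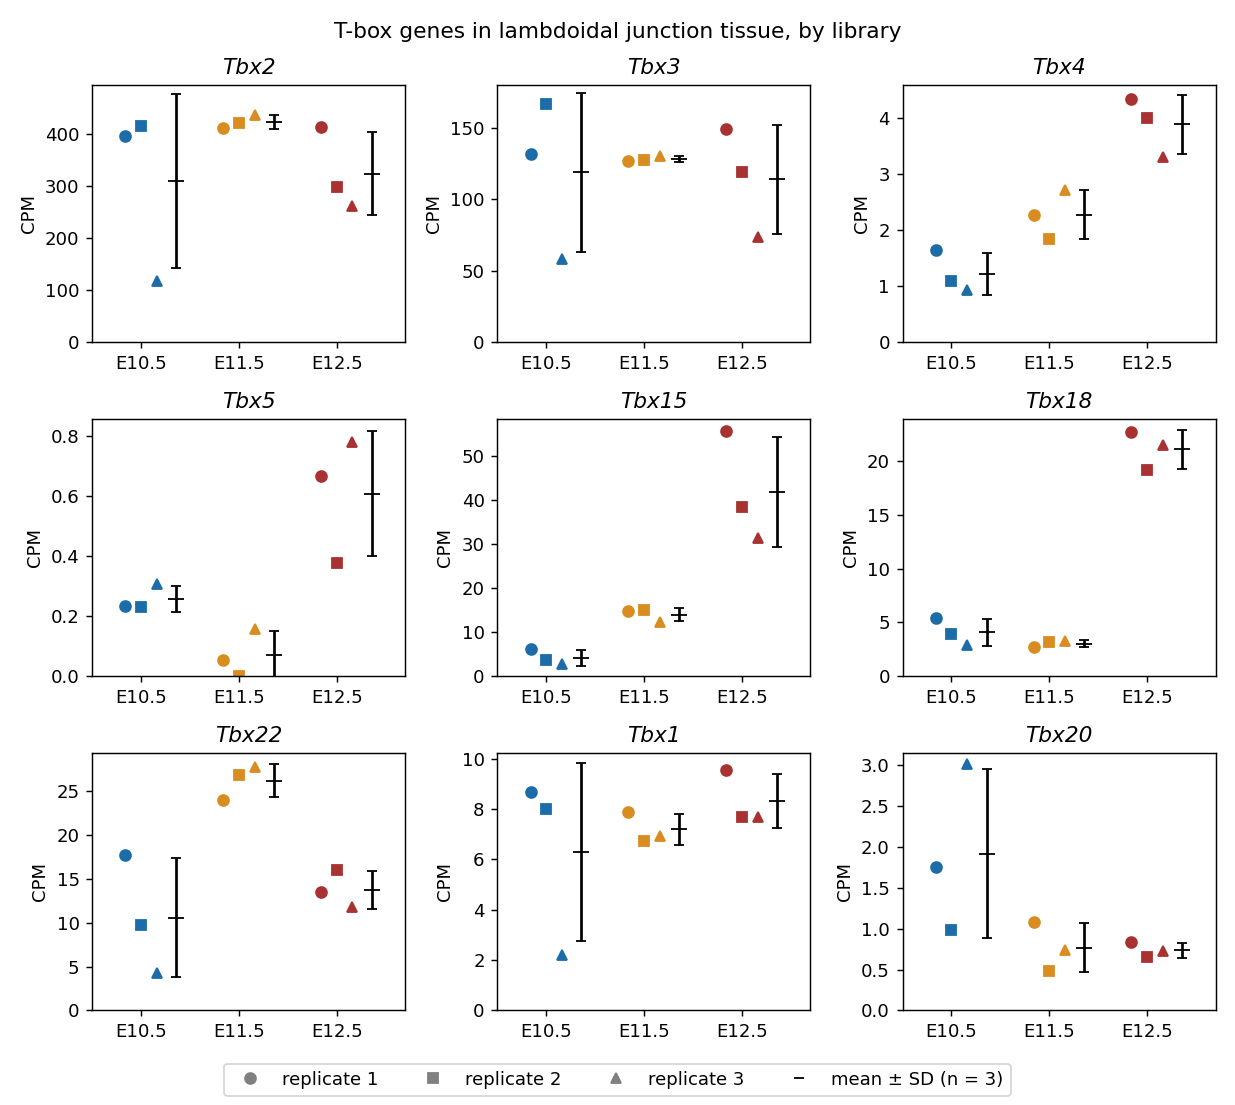
CPM of each T-box gene (y axis, starting at 0 and scaled per gene) in the 9 libraries by stage (x axis), with 1 point per library, its shape marking the replicate, and a bar for the mean ± SD (n = 3). Tbx4, Tbx15 and Tbx18 are highest at E12.5 and Tbx22 at E11.5, and E10.5 replicate 3 (blue triangle) is the lowest of all libraries for Tbx1, Tbx2, Tbx3, Tbx4, Tbx15 and Tbx22 and the highest for Tbx20.

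A joint test asked whether a gene changed at all over the 3 stages, with all 9 libraries in the fit. At an adjusted p of at most 0.05, 5 of the 8 T-box genes changed across the stages, against 28.3% of the 16375 genes tested. These were Tbx18 (adjusted p = 3.65e-06), Tbx15 (adjusted p = 1.78e-05), Tbx4 (adjusted p = 0.00421), Tbx22 (adjusted p = 0.0316) and Tbx20 (adjusted p = 0.0446). Without E10.5 replicate 3 the adjusted p was 0.00370 for Tbx22 and 0.218 for Tbx20, and Tbx5 entered the test and passed (adjusted p = 0.0217). Tbx18, Tbx15 and Tbx4 passed there too (9.3e-07, 1.74e-05 and 0.00597). With the GC trend removed, Tbx22 did not pass (adjusted p = 0.116). Whether a gene changed differently in the second interval than in the first was tested as a contrast of its own. It passed for Tbx18 alone among the 8, against 1.18% of all genes, with a difference of 3.24 on the log2 scale (SE = 0.42, adjusted p = 0.00389), and 3.39 without replicate 3 (adjusted p = 6.07e-04). For Tbx22 the difference was -2.20 (SE = 0.59, adjusted p = 0.103), which passed without replicate 3 at -1.87 (adjusted p = 0.0166). For Tbx15 it was -0.12 (SE = 0.48, adjusted p = 0.948), and 0.067 without replicate 3 (adjusted p = 0.946).

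Per kilobase of transcript, the order of the genes was led by Tbx2 and Tbx3 at all stages. At E10.5 the means were 85.3 ± 46.1 CPM per kilobase (SD, n = 3, here and below) for Tbx2 and 17.9 ± 8.35 for Tbx3. They were followed by Tbx22 (1.90 ± 1.22), Tbx1 (1.79 ± 1.01), Tbx15 (1.12 ± 0.49) and Tbx18 (0.87 ± 0.27), whose neighbours in this order did not differ beyond their spread. Tbx4 (0.36 ± 0.11), Tbx20 (0.16 ± 0.086) and Tbx5 (0.055 ± 0.0094) came last, each apart from its neighbours in all libraries. Over replicates 1 and 2 alone, Tbx2 was at 112, Tbx3 at 22.5, Tbx22 at 2.47, Tbx1 at 2.37, Tbx15 at 1.32 and Tbx18 at 0.99. At E11.5 Tbx22 (4.72 ± 0.35), Tbx15 (3.74 ± 0.41) and Tbx1 (2.05 ± 0.17) followed Tbx2 and Tbx3 without overlap, and Tbx4 (0.67 ± 0.13) and Tbx18 (0.65 ± 0.064) overlapped. At E12.5 Tbx15 (11.2 ± 3.33) and Tbx18 (4.46 ± 0.38) ranked above Tbx22 (2.47 ± 0.38) and Tbx1 (2.36 ± 0.31), and the last pair overlapped. The deposited FPKM values gave the same order at every stage. Tbx2 exceeded 98.3%, 98.9% and 98.3% of the 30199 genes with a count at the 3 stages in turn, and Tbx15 exceeded 59.1%, 69.98% and 83.6% of them. Without replicate 3 the E10.5 values were 98.8% and 60.4%.

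Seen as a share of all T-box transcripts, with the 8 further family members included, Tbx2 made up 68.6 ± 9.25% (E10.5), 74.2 ± 0.82% (E11.5) and 65.9 ± 2.50% (E12.5). Tbx3 made up 15.2 ± 1.48%, 12.3 ± 0.076% and 12.5 ± 1.89%. The share of Tbx15 was 1.019 ± 0.35%, 2.39 ± 0.30% and 8.17 ± 0.55%, and that of Tbx18 was 0.81 ± 0.28%, 0.41 ± 0.035% and 3.40 ± 0.75%. At E12.5 both lay above every library of the earlier stages. Without replicate 3 the E10.5 shares were 73.9% (Tbx2), 14.8% (Tbx3), 0.88% (Tbx15) and 0.66% (Tbx18). Mga, a large protein that carries a T-box beside a second DNA-binding domain, took 18.9% in E10.5 replicate 3 and at most 6.70% in every other library, while its own level there was 161 CPM against 122 CPM in both other E10.5 libraries. The summed level of the family was 119 ± 55.4, 157 ± 3.18 and 136 ± 31.2 CPM per kilobase at the 3 stages, which overlapped, and 151 CPM per kilobase at E10.5 without replicate 3.

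**Figure D5:**
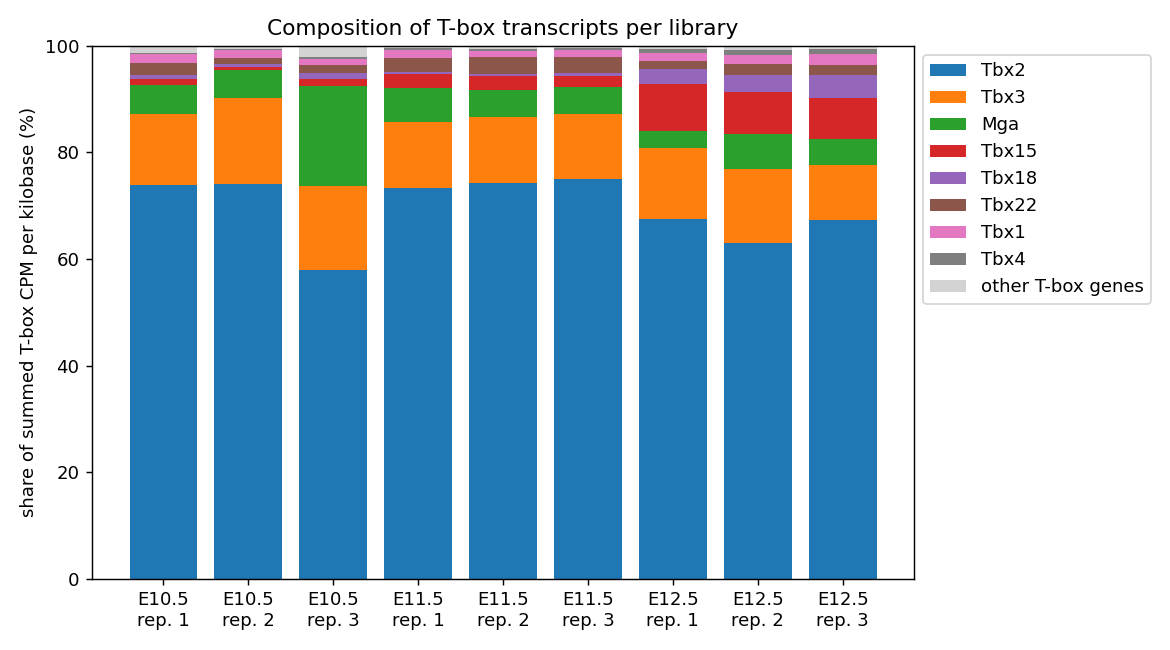
Share of each T-box gene in the summed CPM per kilobase of all T-box genes (y axis, percent) in each of the 9 libraries (x axis). Tbx2 is the largest part of every bar, at 57.9% to 75.1%, and Tbx15 and Tbx18 widen at E12.5, to means of 8.17% and 3.40%.

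Of the 8 further T-box genes, 4 could be tested in E11.5 vs. E10.5 and 2 of these were downregulated, against 2.61% of all genes. Tbr1, a gene of early cortical neurons, fell by 3.48 on the log2 scale (SE = 0.69, adjusted p = 0.0171), from 10 to 31 counts to 1 to 4 counts. Without replicate 3 its log2 fold change was -3.46 (adjusted p = 0.00254). Eomes, known from the early embryo and from cortical progenitors, fell by 2.73 (SE = 0.47, adjusted p = 0.0103), from 16 to 36 counts to 3 to 5 counts. Without replicate 3 its value was -2.74 (adjusted p = 0.00165). At E12.5 its libraries were at or below 3 counts. Against 3 counts per library there, the E10.5 mean of Eomes was 8.85-fold higher (8.92-fold without replicate 3). Both are known from the forebrain, 6 of whose 7 listed markers fell over the same interval with and without that library, and the part of forebrain cells in these values was not tested. Mga did not pass in any comparison, with log2 fold changes of -0.035 in E11.5 vs. E10.5 (0.11 without replicate 3) and -0.42 (SE = 0.19, adjusted p = 0.164) in E12.5 vs. E11.5. Tbx6, T, Tbx10 and Tbx21 had at most 15 counts in any library, and Tbx19 had 0 in all 9.

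A list of 26 signals, partners and co-repressors tied to T-box genes was examined beside them, of which 24 were tested and Gata4 and Nkx2-5, the heart partners of Tbx5 and Tbx20, had at most 3 counts in every library. In E11.5 vs. E10.5, 6 rose and 3 fell, against 3.46% and 2.61% of all genes (median log2 fold change 0.43, against -0.032 over all genes). Without E10.5 replicate 3, 5 rose and 4 fell, against 4.75% and 5.04% (median 0.34). The largest changes were those of Aldh1a2, which makes retinoic acid (3.39, SE = 0.35, adjusted p = 0.00168), Osr2, a palate gene (2.79), Shh, the signal of the facial epithelium (-2.56), and Osr1 (2.16). In E12.5 vs. E10.5, 7 rose and 4 fell, against 9.97% and 5.08% (median 0.37, against -0.0063), and 6 rose and 4 fell without replicate 3, against 10.4% and 6.23% (median 0.16). The changes were led by Osr1 (4.98), Osr2 (4.60), Aldh1a2 (4.57) and Bmp2, a bone morphogenetic protein (3.27). In E12.5 vs. E11.5, 5 rose and 1 fell, against 4.14% and 0.962% (median 0.092, against 0.019), led by Osr1 (2.81), Osr2 (1.80), Bmp2 (1.64) and Fgf8, an epithelial growth factor (-1.55). All of these named changes passed the test, and those in comparisons with E10.5 kept their sign and an adjusted p below 0.05 without replicate 3. Exons of Shh share 28.35% of their bases with other genes, so its counts are uncertain. Bmp4, which can act upstream of Tbx2 and Tbx3, stood at 41.3 ± 4.26, 59.3 ± 7.71 and 77.1 ± 13.2 CPM (SD, n = 3). Mn1, a regulator of Tbx22 in the palate, stood at 98.6 ± 35.3, 120 ± 5.33 and 133 ± 21.2 CPM. Over E10.5 replicates 1 and 2 alone, Bmp4 was at 38.8 CPM and Mn1 at 119 CPM. The log2 fold change of Mn1 in E11.5 vs. E10.5 was 0.26, or -0.0049 without replicate 3. Neither Bmp4 nor Mn1 was a DEG in any comparison. Bmp4 passed the p threshold in E12.5 vs. E10.5 and fell short of the fold threshold (0.90, edgeR adjusted p = 0.00585). Without replicate 3 its value was 0.99 (adjusted p = 0.00327).

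Of 10 genes that overlap a T-box gene or lie within 5 kb of one, 4 had enough counts for the test. Besides Tbx3os1, these were Tbx3os2, the transcript 2610027K06Rik next to Tbx2, and Wars2, a mitochondrial tRNA synthetase gene next to Tbx15. None of these 3 was called in any comparison. Wars2 had a log2 fold change of -0.29 in the first interval, -0.26 in the second and -0.54 over both (-0.33 and -0.57 in the first and over both without E10.5 replicate 3), while Tbx15 beside it rose in each.

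Among 13138 protein-coding genes outside the family with a mean of at least 1 CPM, the genes whose log2 CPM over the 9 libraries was most like that of a T-box gene were found by Pearson's r, which is given as a description without a p-value. For Tbx15 they were Pld3 (r = 0.989), Osr1 (r = 0.987) and Col8a2 (r = 0.986), and for Tbx4 they were Tnc (r = 0.992), Myadm (r = 0.985) and Mmp14 (r = 0.985). For Tbx18 they included Lrrtm1 (r = 0.979) and Tnmd (r = 0.973), with Tnmd, a tendon gene, averaging 0, 0.018 and 9.09 CPM at the 3 stages. For Tbx22 they were Gulo (r = 0.988), Col24a1 (r = 0.985), a fibrillar collagen, and Slc16a10 (r = 0.982), all with their highest mean at E11.5. For Tbx20 the forebrain and eye gene Six3 came first (r = 0.929), ahead of Ostm1 (r = 0.927) and Zfp993 (r = 0.926). For the others they were Rnpepl1, Kcp and Faap100 (Tbx1, r = 0.982 to 0.987), Exoc3l, Isl2 and Zfp212 (Tbx2, r = 0.968 to 0.976) and Fbrs, Clcn7 and Ncoa5 (Tbx3, r = 0.983 to 0.994), for which the highest stage mean was 1.04 times (Ncoa5) to 1.48 times (Kcp) the lowest. Between T-box genes, r was 0.970 for Tbx4 and Tbx15, 0.908 for Tbx2 and Tbx3 and 0.767 for Tbx15 and Tbx18. All points share the same 9 libraries and their stage differences, and E10.5 replicate 3 lies far from the rest for several genes. Without it, r fell to between 0.675 and 0.771 for the genes named for Tbx1, between 0.796 and 0.873 for those of Tbx2 and between 0.805 and 0.826 for those of Tbx20, and was 0.962 to 0.994 for the other named genes. Between T-box genes it was then 0.956 for Tbx4 and Tbx15, 0.822 for Tbx2 and Tbx3 and 0.751 for Tbx15 and Tbx18.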

How the data were processed

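RNA was measured in 9 libraries of lambdoidal junction tissue, 3 per stage, made with the Illumina TruSeq RNA Sample Prep Kit, which does not mark strand. The authors mapped reads to GRCm38/mm10 with HISAT2 2.0.5, and deposited whole-number read counts per gene from featureCounts, without normalization. The deposited FPKM values, which the authors computed from gene length and counts, were used only to order genes within a stage. The 15 columns of the authors' own stage comparisons (log2 fold changes, p-values and adjusted p-values) were not used. How reads with several positions were treated is not given in the sources used here. Depth was 16581009 to 20836804 counts per library, and a stage whose libraries all had 3 counts or fewer was taken as below detection. Reads carry no molecular identifiers, and fold values against 3 counts carry no error of the higher stage.

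Every comparison used only its 6 libraries, in edgeR 4.0.16 (R 4.3.3; filterByExpr with a minimum count of 10, TMM, quasi-likelihood test). DEGs passed an adjusted p of 0.05 (Benjamini-Hochberg) and a log2 fold change of 1 in either direction. An SE is the size of the log2 fold change over the square root of F. All 9 libraries entered the joint test of the stages, the contrast of the intervals, and CPM. Genes were compared only per kilobase of the deposited gene length. Likeness was computed on log2 CPM (prior count 2). The tests were checked on simulated counts, in which 88% to 100% of genes given a log2 change of 1.5 or 2 were called. False calls numbered 1 to 15 per comparison. The simulation held no GC trend and no library that stood apart, so it cannot speak for the part of E10.5 replicate 3. With 3 libraries against 3, an exact permutation test of 1 gene cannot go below p = 0.1, so none was run.

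The T-box genes and the gene lists were chosen with earlier results of these data known. Named are the 9 genes, the further T-box family, the 4 list members with the largest change among DEGs, genes within 5 kb, and the 3 genes most like each tested T-box gene, of which 1 is not reported here. Bmp4, Mn1, Gata4, Nkx2-5, Prrx1, Pitx1 and Nppa, and the ratios, were added after values were seen. Exon overlaps and transcript GC content are from GENCODE vM21 (54409 of 54532 identifiers found). Promoter windows are from RefSeq (GRCm38.p6), in which 5 of the 9 genes were matched. Alternatives were DESeq2 1.42.0, its size factors in edgeR, upper quartile scaling, 2 other filters, a fit on all 9 libraries, a replicate block, removal of each library's GC trend (lowess, span 0.3), stricter p, and each library left out in turn. A shorter Tbx18 length, and shares, levels per kilobase, likeness and lists without E10.5 replicate 3, were chosen after seeing the data. Figures were drawn with matplotlib 3.10.9.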

Additional observations from a re-analysis of the deposited data

Results flagged for a closer look

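Tbx18 changed differently in the 2 intervals between stages. The test of the difference itself gave 3.24 on the log2 scale for the change from E11.5 to E12.5 minus the change from E10.5 to E11.5 (SE = 0.42, edgeR adjusted p = 0.00389, n = 9 libraries), and 3.31 with the GC trend of each library removed (adjusted p = 0.00466). All 3 E12.5 libraries were above all 6 earlier ones.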

How the results depend on the processing

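Of the T-box fold changes under the alternatives, 327 kept their direction and their side of the thresholds, 13 newly passed, 1 no longer passed and 19 changed sign, the last all from small values that were not called. In E11.5 vs. E10.5, the count of 1 called gene became 2 with all genes of at least 1 count, with DESeq2 and with all 9 libraries (Tbx15 and Tbx22), and 2 with the GC trend removed together with the replicate block (Tbx15 and Tbx20). At an adjusted p of at most 0.01 it was 0, and the joint count was 3. The interval count of 1 became 2 with at least 1 count, with DESeq2 and with the GC trend removed together with the replicate block. Leaving out 1 library at a time, the counts ranged over 0 to 2 (E11.5 vs. E10.5), 3 to 4 (E12.5 vs. E10.5), 2 to 4 (E12.5 vs. E11.5), 3 to 5 (joint test) and 1 to 2 (intervals). The 0 is without E11.5 replicate 1, the 4 in E12.5 vs. E11.5 without E12.5 replicate 2 (Tbx5 and Tbx22 added; Tbx5 was also added with DESeq2, with at least 1 count and without E11.5 replicate 3), and the joint 3 without E11.5 replicate 2, E12.5 replicate 1 or E12.5 replicate 3. The interval count of 2 is without E10.5 replicate 1 or replicate 3, and the 2 in E11.5 vs. E10.5 without E10.5 replicate 1. Tbx20 was called in E12.5 vs. E10.5 under 7 of the alternatives (adjusted p = 0.0254 to 0.0495), among them without E10.5 replicate 2 (-1.70, adjusted p = 0.0256). The cause of these changes was not tested.

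With the GC trend removed, the sign turned for Tbx2 in E12.5 vs. E10.5 (-0.037). It also turned in the second interval for Tbx1 (-0.055) and Tbx20 (0.015), and with the replicate block added, the last 2 were -0.052 and 0.046. Upper quartile scaling gave 0.0033 for Tbx20 in E12.5 vs. E11.5. Leaving out 1 library, values that changed sign in E11.5 vs. E10.5 lay between -0.23 and 0.47 (Tbx1) or -0.24 and 0.41 (Tbx3). In E12.5 vs. E10.5 they ranged from -0.0051 to 0.68 (Tbx1), from -0.32 to 0.33 (Tbx2), from -0.39 to 0.25 (Tbx3) and from -0.0021 to 0.95 (Tbx22). For E12.5 vs. E11.5 they spanned -0.41 to 0.069 (Tbx3) and -0.32 to 0.26 (Tbx20). Where a stage kept 2 libraries, its spread was taken from the pooled estimate. Same-numbered libraries share only a number: their deviations from the stage means correlated at -0.15 to 0.22. With the replicate block, 1, 3 and 2 genes were called in the 3 comparisons, as without it, and Tbx3 in E12.5 vs. E10.5 turned from -0.060 to 0.0064. All 54 alternative CPM levels lay within 1 SD. Depth limits Tbx5 and the further T-box genes with few counts.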
